A study of Homo sapiens with 20 samples.

Results

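The genes described here are 46 human genes whose products bring new proteins to the endoplasmic reticulum (ER), pass them through or into its membrane, cut off their signal peptides and attach N-linked glycans. They were taken by name from the subunit lists of 9 complexes or groups, and each was matched to 1 gene identifier among the 60616 in the RNA-seq count table and to 1 of the 20401 in the ribosome footprint table. The groups were the signal recognition particle (SRP, 6 genes), its receptor (2), the Sec61 channel (3), the channel partners SEC62, SEC63 and TRAM1 (3), the translocon-associated protein complex TRAP (4), signal peptidase (5), the oligosaccharyltransferase OST (11), the GET and BAG6 tail-anchor pathway (4) and the ER membrane protein complex EMC (8).

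The study used K562, a line derived from a chronic myeloid leukaemia and widely used as a model of early red blood cell precursors, to ask what NAT10 does in erythroid cells. NAT10 is the enzyme that acetylates cytidine in RNA, giving N4-acetylcytidine (ac4C). NAT10 knockout cells, in which exon 5 of NAT10 had been targeted with CRISPR-Cas9, were set against the parental wild-type K562 cells, both grown in RPMI-1640 with fetal bovine serum. RNA-seq and ribosome profiling (Ribo-seq, sequencing of the fragments that ribosomes protect) each had 2 libraries from knockout cells and 2 from wild-type cells, and an ac4C antibody pull-down of RNA (acRIP-seq) gave 1 merged peak list per genotype for the antibody and 1 for control IgG. Cells for Ribo-seq of both genotypes were treated with cycloheximide at 100 µg/ml before lysis. The labels say neither whether the knockout line is 1 clone nor whether the libraries of a group came from separate cultures. The p-values therefore cover at most the spread among these libraries, which may be technical.

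Most secreted and membrane proteins are recognised by SRP as they leave the ribosome, handed to the SRP receptor, and threaded through the Sec61 channel. TRAP sits beside that channel, signal peptidase removes the leader peptide, and OST transfers a preassembled glycan to asparagines of the growing chain. Proteins anchored by a tail segment use the GET proteins instead, and EMC inserts some weakly hydrophobic membrane segments.

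RNA libraries held 18093324 and 18778485 counts in knockout cells and 10388717 and 12725302 counts in wild-type cells. Footprint libraries were much shallower, with 1173526 and 621287 counts in knockout cells and 1220308 and 911336 counts in wild-type cells, so that footprint values of low genes carry wide counting error. The knockout RNA libraries differed from each other by almost no more than counting noise. Their chi-square per degree of freedom was 1.03 (chi-square test, p = 0.00388 over 16131 degrees of freedom), against 12.5 for the wild-type RNA libraries. The knockout RNA libraries were summed and counted as 1 sample in the RNA test, which left it 1 residual degree of freedom. RNA p-values thus hold no spread among knockout libraries and rest on the wild-type pair, with information shared over genes. Levels are depth-scaled counts (CPM, with trimmed-mean scaling). They are compared only between libraries, never between genes, since they are not divided by transcript length. Where genotypes are said below to lie apart or not to overlap in RNA, the knockout libraries stand for 1 sample. The share of all genes without overlap is not given for either assay, so a lack of overlap is a description and not a test. NAT10 itself had 49.97 and 49.3 CPM in knockout RNA libraries and 136 and 148 CPM in wild-type RNA libraries, a log2 fold change (knockout minus wild type) of −1.51 (SE 0.0852, adjusted p = 0.000102 by edgeR). Both knockout libraries were well below both wild-type libraries, and the transcript was still counted there. NAT10 footprints were 55.3 and 48.3 CPM in knockout libraries and 180.2 and 192 CPM in wild-type libraries, likewise apart (log2 fold change −1.82, SE 0.186, adjusted p = 0.000334 by edgeR). All 10 K562 and erythroid markers had counts in every RNA library, with summed levels of 2049 and 2034 CPM in knockout cells and 1914 and 1933 CPM in wild-type cells. The B cell marker MS4A1 and the keratinocyte marker KRT14 were at 0 in all RNA libraries. A list of 5 monocyte and granulocyte markers summed to 8.799 and 8.91 CPM in knockout cells and 21.7 and 20.02 CPM in wild-type cells, with 3 of 5 counted in every library. LYZ, at 6.31 and 6.03 CPM in knockout cells and 13.7 and 12.1 CPM in wild-type cells, and ITGAM, at 2.16 and 2.45 CPM in knockout cells and 7.83 and 7.43 CPM in wild-type cells, made up nearly all of that sum, while CD14, MPO and ELANE were each under 0.3 CPM. T cell markers, all 4 counted in every RNA library and mostly CD3D and CD3G, summed to 39.95 and 35.8 CPM in knockout cells and 48.2 and 48.9 CPM in wild-type cells. Epithelial markers, almost wholly EPCAM, summed to 35.3 and 31.6 CPM in knockout cells and 48.3 and 41.99 CPM in wild-type cells. B cell and fibroblast lists stayed under 6 CPM in every RNA library. The part of these markers in the results below was not tested.

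In RNA, all 46 genes were tested and 10 passed the threshold of an adjusted p of 0.05 in edgeR's quasi-likelihood test, adjusted over 16277 genes. In knockout cells SSR1 and SSR2 of TRAP fell, as did RPN2, DDOST and STT3B of OST. SEC11A of signal peptidase, the channel pore SEC61A1 and the channel partner TRAM1 fell too. The smallest channel subunit SEC61G and the tail-anchor ATPase GET3 rose. Of the 46, 2 rose and 8 fell, which is 21.7% of the 46 genes, against 14.0% of all genes tested (5.17% rose and 8.79% fell). The median log2 fold change of the 46 was −0.04, with a median of −0.00065 over all genes. Below 0 lay 27 of the 46, and 50.1% of all genes tested. With the 4 RNA libraries kept apart instead of the knockout libraries summed, 25 of the 46 passed, as did 34.1% of all 16040 genes tested in that fit. In these bulk samples, fewer cells of a kind and less RNA per cell cannot be told apart.

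In footprints, 43 of the 46 genes had enough counts to be tested and 4 passed, all of them lower in knockout cells: the SRP receptor subunit SRPRB, the TRAP subunit SSR1 and the OST subunits RPN1 and RPN2. That is 9.30% of the genes tested, against 5.34% of all 8887 genes (1.47% rose and 3.87% fell). SPCS2 and GET1 had too few counts for the filter, and KRTCAP2 had no footprint in any of the 4 libraries. The median log2 fold change of the 43 in footprints was −0.14, with a median of 0.0047 over all genes.

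**Figure D1:**
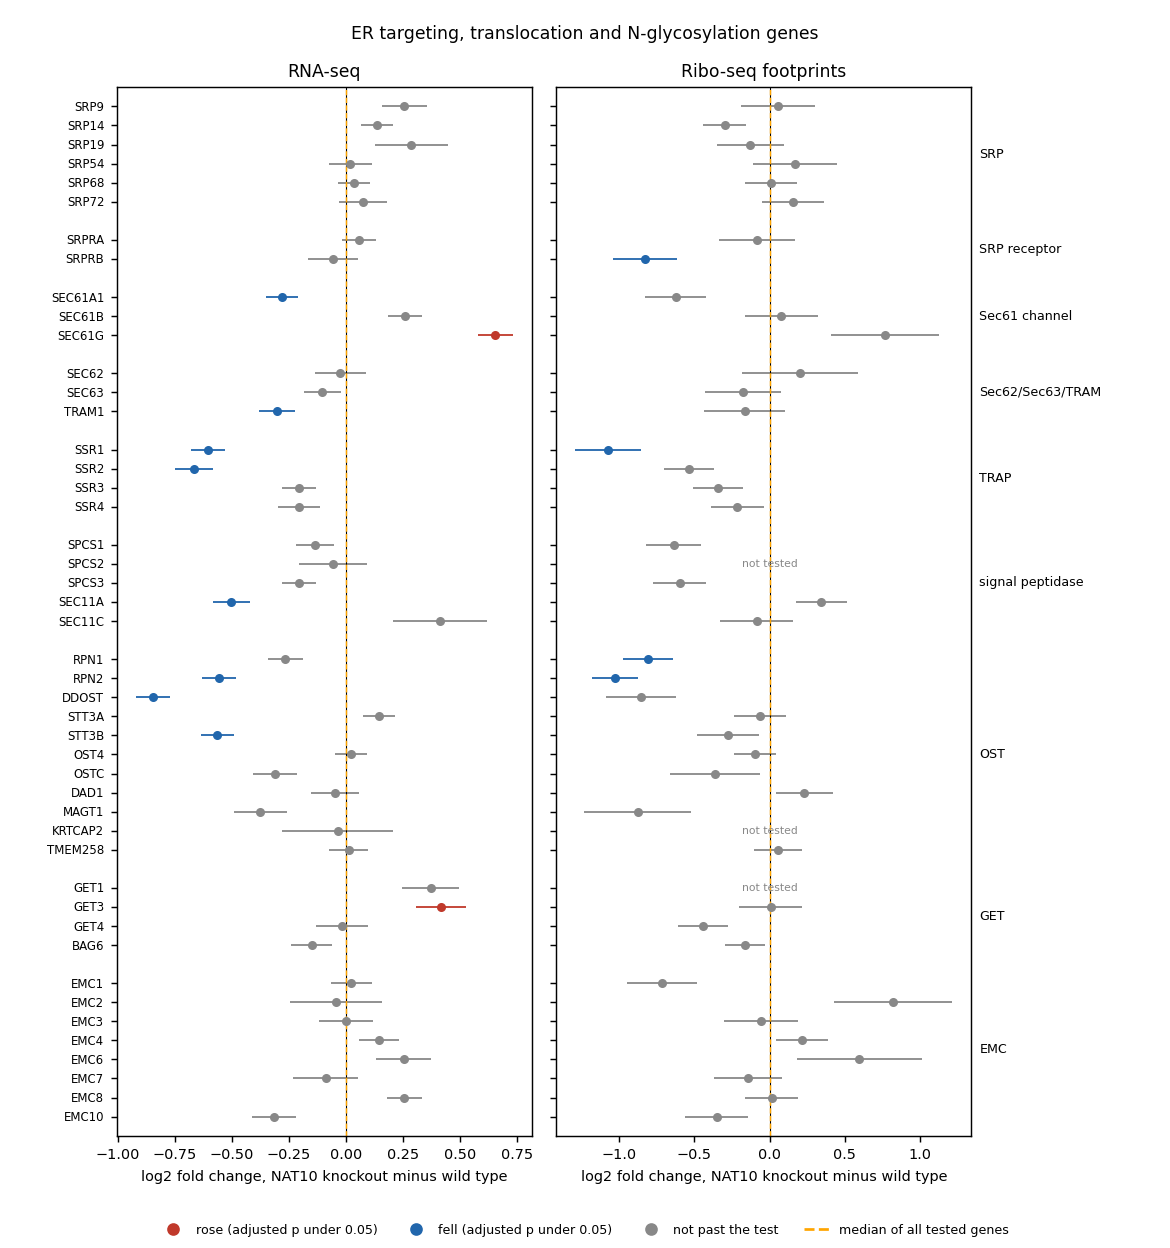
Log2 fold change (knockout minus wild type) of each of the 46 genes in RNA-seq and in Ribo-seq footprints, grouped by complex; points are edgeR estimates, bars their standard errors and colours the test result. The 2 genes that rose in RNA are SEC61G and GET3, and the 8 that fell lie mostly in TRAP and OST.

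SRP is a particle of 6 proteins on 1 RNA that binds signal peptides at the ribosome. None of its 6 protein genes passed the test in RNA or footprints, with RNA log2 fold changes between 0.02 for SRP54, the subunit that binds the signal peptide, and 0.29 for SRP19, which helps SRP54 join the particle. SRP19 had 14.5 CPM in each knockout RNA library and 11.4 and 12.4 CPM in wild-type RNA libraries (SE of the log2 fold change 0.161, adjusted p = 0.286 by edgeR). The knockout libraries lay above both wild-type libraries, by less than the test could separate. In footprints the values ran between −0.30 for SRP14, which with SRP9 forms the part that slows elongation, and 0.17 for SRP54. Summed RNA levels of the 6 genes were 736 and 723 CPM in knockout cells and 641 and 700.3 CPM in wild-type cells. The gap between the genotypes was smaller than the difference between the wild-type libraries. Summed footprints were 948 and 831 CPM in knockout cells and 983 and 978 CPM in wild-type cells. The sums were not tested.

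The RNA of the particle, 7SL, was counted as RN7SL1 at 30759 and 30526 CPM in knockout RNA libraries and 21380 and 27558 CPM in wild-type RNA libraries (log2 fold change 0.33, SE 0.144, adjusted p = 0.175 by edgeR). Both knockout libraries were above both wild-type ones, while the wild-type libraries differed widely from each other. RN7SL2 was at 0 in every library, and since the copies are nearly identical the counting may have assigned all reads to 1 of them.

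Promoters were read to see which genes carry the elements of the unfolded protein response, the pathway that raises many ER genes when unfolded proteins build up. RefSeq promoter windows (GRCh38.p14, 250 bases before to 50 bases after the start site) matched 39 of the 46 genes. SRP19 is shown because it held the core of the response element bound by XBP1 and ATF6, TGACGTGG on either strand, which SEC62 also held. The window is chr5:112861037-112861336, + strand, with capitals marking the element, here as its reverse complement.
SRP19: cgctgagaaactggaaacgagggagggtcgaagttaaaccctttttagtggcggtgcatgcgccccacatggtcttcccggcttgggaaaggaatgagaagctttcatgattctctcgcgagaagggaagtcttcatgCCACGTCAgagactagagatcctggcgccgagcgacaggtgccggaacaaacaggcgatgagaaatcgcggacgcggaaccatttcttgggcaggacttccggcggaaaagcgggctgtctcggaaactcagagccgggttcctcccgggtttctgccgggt
The element was in 2 of 39 matched genes (5.13%) and in 217 of 27305 promoters (0.795%). Those promoters include genes not tested in RNA. Among the 10803 promoters of genes tested in RNA, 104 held it (0.963%). Neither SRP19 nor SEC62 passed the test in RNA or footprints. The longer ER stress element, CCAAT and CCACG on 1 strand with 9 bases between, was in 0 of 39 and in 22 of 27305 promoters (0.0806%). Its second form, ATTGG, 1 base and CCACG, was in 0 of 39 and in 15 of 27305 (0.0549%). The end of TGACGTGG is the reverse complement of CCACG, so those searches overlap. A match is a description of letters in this window and not a site.

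The SRP receptor has a peripheral subunit, SRPRA, and a membrane-anchored one, SRPRB, both GTPases. SRPRB had 58.7 and 48.3 CPM in knockout footprint libraries and 91.4 and 103 CPM in wild-type footprint libraries. Both knockout values were well under both wild-type values, and the log2 fold change was −0.83 (SE 0.213, adjusted p = 0.0431 by edgeR). Its RNA was 31.6 and 32.6 CPM in knockout cells and 34.5 and 32.7 CPM in wild-type cells, with a log2 fold change of −0.06 (SE 0.11, adjusted p = 0.777 by edgeR). The footprint call was lost under several settings: the adjusted p was 0.0686 without knockout replicate 2, 0.0813 without wild-type replicate 1, 0.159 without wild-type replicate 2, 0.0528 with library totals only and 0.316 with DESeq2. SRPRA had a log2 fold change of 0.06 in RNA and −0.08 in footprints.

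The Sec61 channel consists of the pore SEC61A1 and the small subunits SEC61B and SEC61G. The pore and its smallest subunit moved in opposite directions in RNA. SEC61G had 102 CPM in each knockout RNA library and 67.1 and 63.3 CPM in wild-type RNA libraries, a fold of 1.58 (log2 fold change 0.66, SE 0.0759, adjusted p = 0.00174 by edgeR). SEC61A1 had 94.8 and 95.2 CPM in knockout cells and 115 and 117 CPM in wild-type cells (log2 fold change −0.28, SE 0.0709, adjusted p = 0.0372 by edgeR). In neither gene did the genotypes overlap. SEC61G held its call in all 8 other fits with a test, each of which kept both wild-type libraries. The SEC61A1 call was lost with DESeq2 (adjusted p = 0.288), with library totals only (0.0505) and with no filter on low counts (0.150). SEC61B had a log2 fold change of 0.26 that stayed just short of the threshold (SE 0.0741, adjusted p = 0.0562 by edgeR).

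In footprints, SEC61G had 129 and 53.1 CPM in knockout libraries and 72.9 and 38.1 CPM in wild-type libraries. The genotypes overlapped, and on the log2 scale the libraries of each genotype differed by more than the genotypes did. Library 1 was the higher in both genotypes. The log2 fold change was 0.76 (SE 0.359, adjusted p = 0.248 by edgeR). SEC61A1 footprints were 87.7 and 62.8 CPM in knockout libraries and 126 and 112 CPM in wild-type libraries, without overlap, with a log2 fold change of −0.62 that did not pass (SE 0.204, adjusted p = 0.0996 by edgeR).

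Among the channel partners, TRAM1, a membrane protein that contacts signal sequences inside the channel, had 63.5 and 63.1 CPM in knockout RNA libraries and 75.8 and 81.1 CPM in wild-type RNA libraries. It fell by 0.30 on the log2 scale (SE 0.0803, adjusted p = 0.0438 by edgeR), a call that was lost without knockout replicate 2 (adjusted p = 0.0552), with DESeq2 (adjusted p = 0.349) and with no filter on low counts (adjusted p = 0.117). Its footprints overlapped, at 43.4 and 43.5 CPM in knockout libraries and 58.7 and 37.01 CPM in wild-type libraries. SEC62, which helps short precursors enter after translation, had RNA and footprint log2 fold changes of −0.02 and 0.20. SEC63, which recruits the chaperone BiP to the channel, had −0.10 and −0.18, and neither gene passed in either assay.

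TRAP has 4 subunits, SSR1 to SSR4, and helps certain signal sequences and glycan acceptors engage the channel. SSR1 and SSR2 fell in RNA, and all 4 subunits had log2 fold changes below 0 in both RNA and footprints, with medians of −0.41 and −0.44. Over all genes tested, 50.1% lay below 0 in RNA and 49.5% in footprints. SSR1 had 108 and 110.2 CPM in knockout RNA libraries and 163 and 171 CPM in wild-type RNA libraries, a fold of 0.656 (log2 fold change −0.61, SE 0.0745, adjusted p = 0.00218 by edgeR). SSR2 had 57.99 and 56.5 CPM in knockout cells and 95.2 and 87.4 CPM in wild-type cells, a fold of 0.630 (log2 fold change −0.67, SE 0.0839, adjusted p = 0.00249 by edgeR). In both genes the knockout libraries, counted as 1 sample, were below both wild-type libraries.

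SSR1 also fell in footprints, with 55.3 and 49.9 CPM in knockout libraries and 126 and 96.4 CPM in wild-type libraries (log2 fold change −1.07, SE 0.218, adjusted p = 0.0142 by edgeR). The call was lost without wild-type replicate 1, the library with the highest value, where the log2 fold change was −0.86 and the adjusted p 0.103, and with DESeq2 (adjusted p = 0.0797). SSR2 footprints were 133 and 118 CPM in knockout libraries and 190.3 and 175 CPM in wild-type libraries, apart but not past the test (log2 fold change −0.54, SE 0.167, adjusted p = 0.0862 by edgeR). SSR3 and SSR4 had RNA log2 fold changes of −0.21 each and footprint values of −0.34 and −0.21, none past the test. The summed RNA of the complex was 336 and 339 CPM in knockout cells and 450.5 and 463 CPM in wild-type cells.

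The promoters of SSR1 and SSR2 are shown because they are the TRAP genes that fell together in RNA. Capitals mark CCAAT or its complement ATTGG and CCACG or its complement CGTGG, the letters that make up the ER stress element when they stand 9 bases apart. The windows are chr6:7313150-7313449 for SSR1 and chr1:156020902-156021201 for SSR2, both on the − strand.
SSR1: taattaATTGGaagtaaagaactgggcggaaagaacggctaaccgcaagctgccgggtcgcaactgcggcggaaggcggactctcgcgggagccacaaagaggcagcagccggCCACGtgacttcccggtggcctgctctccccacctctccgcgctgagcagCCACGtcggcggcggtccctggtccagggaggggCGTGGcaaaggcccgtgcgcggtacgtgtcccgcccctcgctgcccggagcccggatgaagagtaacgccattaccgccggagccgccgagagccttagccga
SSR2: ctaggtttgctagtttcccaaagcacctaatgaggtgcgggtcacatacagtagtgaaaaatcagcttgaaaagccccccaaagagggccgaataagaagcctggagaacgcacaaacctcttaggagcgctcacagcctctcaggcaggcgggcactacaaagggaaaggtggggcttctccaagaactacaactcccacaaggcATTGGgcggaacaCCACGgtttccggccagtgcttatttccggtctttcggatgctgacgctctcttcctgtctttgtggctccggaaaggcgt
Each window held both kinds of letters, at other distances than the element has. This search for the separate letters was chosen after the data had been seen. CCAAT on either strand was in 20 of 39 matched genes (51.3%) and 35.7% of 27305 promoters, CCACG on either strand in 21 of 39 (53.8%) and 37.9%, and both in 8 of 39 (20.5%) and 12.5%. The 27305 promoters include genes not tested in RNA.

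Signal peptidase combines a catalytic subunit, SEC11A or SEC11C, with SPCS1, SPCS2 and SPCS3. SEC11A was the subunit that fell in RNA, and its footprints lay on the other side. Its RNA was 141 and 149.7 CPM in knockout cells and 199.6 and 214.5 CPM in wild-type cells (log2 fold change −0.50, SE 0.082, adjusted p = 0.00683 by edgeR). Its footprints were 141 and 159 CPM in knockout cells and 121 and 113 CPM in wild-type cells, with a log2 fold change of 0.34 (SE 0.17, adjusted p = 0.275 by edgeR). Both sets of libraries were apart, in opposite directions. SEC11C had the highest RNA value of the group, a log2 fold change of 0.41 (SE 0.205, adjusted p = 0.231 by edgeR), at low levels of 9.297 and 8.11 CPM in knockout cells and 7.17 and 5.98 CPM in wild-type cells.

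SPCS1, a small noncatalytic subunit, had the lowest footprint value of the group. It had 134.5 and 108 CPM in knockout footprint libraries and 209.6 and 172 CPM in wild-type ones, which did not overlap (log2 fold change −0.64, SE 0.182, adjusted p = 0.0638 by edgeR). SPCS3, needed for activity, had a footprint log2 fold change of −0.60 (adjusted p = 0.0713 by edgeR). SPCS2 had few footprints, and none in knockout library 2.

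OST joins a catalytic subunit, STT3A or STT3B, to a shared scaffold that includes RPN1, RPN2, DDOST, DAD1, OST4 and TMEM258. RPN2, DDOST and STT3B fell in RNA, RPN1 and RPN2 fell in footprints, and no OST gene rose in either. The summed RNA of all 11 genes was 747 and 746 CPM in knockout cells and 904 and 926 CPM in wild-type cells, and the summed footprints were 1743 and 1629.8 CPM in knockout cells and 2259.9 and 2019 CPM in wild-type cells. Neither sum overlapped between genotypes, and neither was tested.

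RPN2, a scaffold subunit, fell in both assays. Its RNA was 121.7 and 121.8 CPM in knockout cells and 178.5 and 182 CPM in wild-type cells, a fold of 0.679 (log2 fold change −0.56, SE 0.0737, adjusted p = 0.00298 by edgeR). Its footprints were 240.1 and 201 CPM in knockout cells and 456 and 449.7 CPM in wild-type cells, a fold of 0.491 (log2 fold change −1.03, SE 0.151, adjusted p = 0.00278 by edgeR). The genotypes were far apart in both assays, and both calls held in every other fit with a test, 8 in RNA and 9 in footprints. The 8 RNA fits all kept both wild-type libraries.

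DDOST, the subunit that helps hold the catalytic core together, had the lowest RNA log2 fold change of the 46 genes. Its RNA was 53.2 and 53.3 CPM in knockout cells and 96.6 and 95.8 CPM in wild-type cells, a fold of 0.556 (log2 fold change −0.85, SE 0.0752, adjusted p = 0.000595 by edgeR). Its footprints were 68.1 and 113 CPM in knockout cells and 175 and 137 CPM in wild-type cells, with a log2 fold change of −0.86 that just missed the threshold (SE 0.232, adjusted p = 0.0522 by edgeR). Libraries of 1 genotype differed widely there, without overlap between genotypes.

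RPN1, which can present substrates to the catalytic subunit, had 145 and 142 CPM in knockout footprint libraries and 230.5 and 272.5 CPM in wild-type footprint libraries. It fell by 0.81 on the log2 scale (SE 0.165, adjusted p = 0.0148 by edgeR), and without wild-type replicate 2, the higher of the wild-type libraries, the value was −0.69 with an adjusted p of 0.0931. Its RNA was 74.3 and 70.6 CPM in knockout cells and 85.3 and 89.5 CPM in wild-type cells, also without overlap but just short of the threshold (log2 fold change −0.27, SE 0.0758, adjusted p = 0.0564 by edgeR).

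The catalytic subunits differed in RNA. STT3B, which can glycosylate sites after the chain has passed the channel, had 83.1 and 87.4 CPM in knockout RNA libraries and 124.5 and 129 CPM in wild-type RNA libraries (log2 fold change −0.56, SE 0.0727, adjusted p = 0.00268 by edgeR). STT3A, which works on chains as they emerge from the channel, had 99.3 and 101 CPM in knockout cells and 92.1 and 90.2 CPM in wild-type cells, the highest RNA value of the complex and not past the test (log2 fold change 0.14, SE 0.0705, adjusted p = 0.226 by edgeR). Knockout libraries lay below wild-type libraries for STT3B and above them for STT3A; the difference between these changes was not tested. In footprints STT3B had a log2 fold change of −0.28 and STT3A of −0.06, neither past the test. The highest footprint value was 0.23 for DAD1, and of the other OST genes OST4, TMEM258, OSTC, MAGT1 and KRTCAP2 none passed in RNA, with log2 fold changes between −0.38 for MAGT1, an oxidoreductase of the STT3B form, and 0.02 for OST4.

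The promoters of DDOST and RPN2, the OST genes with the lowest RNA and footprint values, differ in the same letters. The windows are chr1:20661320-20661619 for DDOST on the − strand and chr20:37179080-37179379 for RPN2 on the + strand, with capitals as for the TRAP genes.
DDOST: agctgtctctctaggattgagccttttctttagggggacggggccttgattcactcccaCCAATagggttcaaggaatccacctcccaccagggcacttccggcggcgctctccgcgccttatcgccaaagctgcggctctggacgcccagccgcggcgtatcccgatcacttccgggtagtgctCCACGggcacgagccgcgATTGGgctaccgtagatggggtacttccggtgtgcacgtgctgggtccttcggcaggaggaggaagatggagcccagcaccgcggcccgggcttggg
RPN2: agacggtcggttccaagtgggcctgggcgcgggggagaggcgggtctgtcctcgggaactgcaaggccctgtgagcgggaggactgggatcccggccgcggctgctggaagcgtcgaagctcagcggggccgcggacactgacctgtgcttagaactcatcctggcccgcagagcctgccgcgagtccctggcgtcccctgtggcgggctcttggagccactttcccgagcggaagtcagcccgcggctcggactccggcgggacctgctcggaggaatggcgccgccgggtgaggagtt
DDOST held both kinds of letters and RPN2 held neither in this window.

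**Figure D2:**
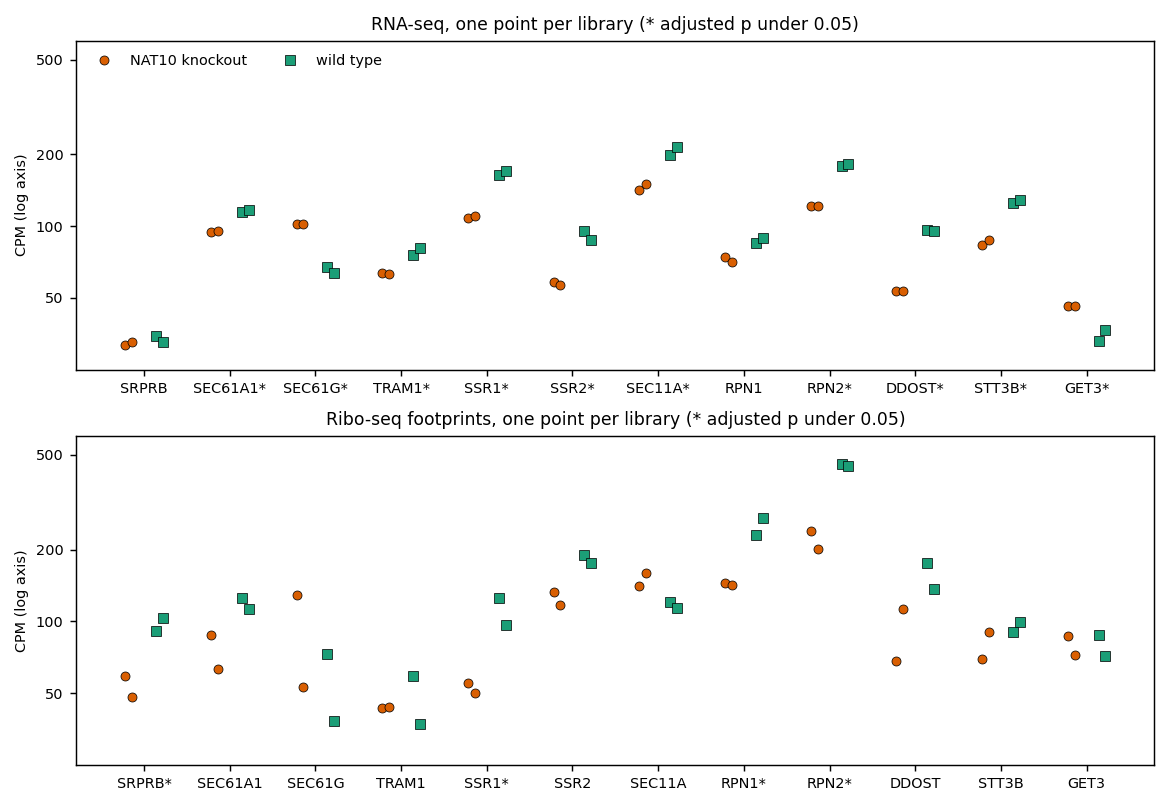
CPM (log axis) in each library for the genes that passed the test in RNA or footprints; knockout libraries stand left of wild-type libraries and each point is 1 library. In RNA, SEC61G and GET3 lie higher in knockout libraries and the other called genes lower.

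In the tail-anchor pathway, GET3, the ATPase that carries tail-anchored proteins, had 46.2 and 46.4 CPM in knockout RNA libraries and 32.8 and 36.7 CPM in wild-type RNA libraries. It rose without overlap (log2 fold change 0.42, SE 0.11, adjusted p = 0.0422 by edgeR), and the call was lost without knockout replicate 2 (adjusted p = 0.0521) and with DESeq2 (adjusted p = 0.293). Its footprints were 86.8 and 72.5 CPM in knockout cells and 88.02 and 71.8 CPM in wild-type cells, which overlapped almost fully (log2 fold change 0.01, SE 0.21, adjusted p = 0.993 by edgeR). BAG6, the chaperone that passes substrates to GET4 and GET3, had the lowest RNA value at −0.15, and GET4, which bridges BAG6 to GET3, the lowest footprint value at −0.44, neither past the test. GET1, part of the receptor in the ER membrane, had an RNA log2 fold change of 0.37 (adjusted p = 0.0924 by edgeR) and 2.55 and 3.22 CPM of footprints in knockout cells and 2.515 and 3.365 CPM in wild-type cells, too few to test.

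None of the 8 EMC genes passed in RNA or footprints. RNA log2 fold changes ran between −0.32 for EMC10, a lumenal subunit, and 0.26 for EMC8, a cytosolic one, with adjusted p-values in edgeR of 0.0673 and 0.0655. EMC8 RNA was 73.1 and 73.8 CPM in knockout cells and 61.7 and 61.9 CPM in wild-type cells, and EMC10 RNA was 44.4 and 43.5 CPM in knockout cells and 56.6 and 53.4 CPM in wild-type cells. Each gene separated the genotypes, in opposite directions, by less than the test required. In footprints the lowest was EMC1, the large lumenal subunit, at −0.72 (SE 0.234, adjusted p = 0.0986 by edgeR), and the highest EMC2, a cytosolic scaffold, at 0.82 (SE 0.391, adjusted p = 0.256 by edgeR). The summed RNA was 338 and 341 CPM in knockout cells and 335 and 320.3 CPM in wild-type cells.

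Translational efficiency, the change in footprints beyond the change in RNA, was tested as an interaction in 1 edgeR fit over both assays. None of the 43 genes tested passed, and 0 of all 8821 genes did (0%), with 1 by DESeq2; at an unadjusted p under 0.05 there were 8 of the 43 (18.6%) and 836 of 8821 genes (9.48%). The member with the lowest unadjusted p was SEC11A, with a log2 difference of 0.84 (SE 0.185, adjusted p = 0.31 by edgeR). SRPRB had −0.76 (SE 0.21, adjusted p = 0.379 by edgeR), EMC1 −0.72, RPN1 −0.54, SPCS1 −0.49, RPN2 −0.46, SRP14 −0.43 and GET4 −0.42, each with a lower ratio of footprints to RNA in knockout cells. An effect that did not pass here is not shown to be absent.

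Other genes of the pathway were read from 6 lists of 80 genes. The list with the most calls was that of glycan trimming and lectin chaperones, the enzymes and chaperones that handle the glycan once OST has attached it. Of its 17 genes, 11 fell and 0 rose in RNA (median log2 fold change −0.36), and 9 fell and 0 rose in footprints (median −0.85). Over all genes tested, 8.79% fell and 5.17% rose in RNA, and 3.87% fell and 1.47% rose in footprints. PRKCSH, the regulatory subunit of glucosidase II, had 125.5 and 127 CPM in knockout RNA libraries and 226 and 230.4 CPM in wild-type RNA libraries (log2 fold change −0.85, SE 0.0777, adjusted p = 0.000672 by edgeR). Its footprints were 125 and 145 CPM in knockout cells and 329 and 278 CPM in wild-type cells (log2 fold change −1.18, SE 0.17, adjusted p = 0.00278 by edgeR). The genotypes were apart in both assays.

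Also in that list, RNA log2 fold changes were −0.80 for PDIA3, an oxidoreductase that works with lectin chaperones, −0.54 for CANX, the membrane lectin calnexin, and −0.51 for LMAN1, a cargo lectin. Footprint log2 fold changes were −1.43 for OS9, a lectin of ER-associated degradation, −1.08 for CALR, the lumenal lectin calreticulin, and −0.95 for GANAB, the catalytic subunit of glucosidase II. All of these passed edgeR's test, with the largest adjusted p among them 0.00807.

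Of the enzymes that build the glycan before OST transfers it, 4.17% were called in RNA and 5.88% in footprints. Over all genes tested, 14.0% were called in RNA and 5.34% in footprints. In footprints 14 of the 17 enzymes tested lay below 0 (median log2 fold change −0.42). Over all genes tested in footprints, 49.5% lay below 0, with a median of 0.0047. The RNA median of these enzymes was 0.03. Of 24 dolichol-linked oligosaccharide genes, 1 rose and 0 fell in RNA: DPM1, the catalytic subunit of dolichol-phosphate mannose synthase, with 64.1 and 66.6 CPM in knockout cells and 43.8 and 45.5 CPM in wild-type cells (log2 fold change 0.56, SE 0.0901, adjusted p = 0.00664 by edgeR). DPM1 footprints had a log2 fold change of −0.02 (adjusted p = 0.969 by edgeR). In footprints 1 of 17 tested fell, SRD5A3, a polyprenol reductase (log2 fold change −0.83, adjusted p = 0.0494 by edgeR), and that call was lost without knockout replicate 1 (adjusted p = 0.134), without wild-type replicate 2 (0.296), with library totals only (0.0606) and with DESeq2 (0.286). Of 7 tested genes of the multipass translocon, which inserts proteins with many membrane spans, TMCO1 and CCDC47 fell in RNA. Their log2 fold changes were −0.42 and −0.38. They made up 28.6% of the genes tested, where 8.79% of all genes fell. In footprints 0 of 5 passed, against 5.34% of all genes. Both RNA calls were lost with DESeq2 (adjusted p = 0.0760 for TMCO1 and 0.189 for CCDC47). Of 12 coat genes of ER export, SEC13 rose in RNA (log2 fold change 0.33, adjusted p = 0.0200 by edgeR, lost with DESeq2 at 0.221). That is 8.33% of them, where 5.17% of all genes rose. In footprints 0 of 12 passed.

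Of 17 other targeting and translocon genes, 4 fell in RNA. CAMLG, the receptor partner of GET1, had a log2 fold change of −0.61, HSPA5, the ER chaperone BiP, −0.42, TUSC3, the alternative to MAGT1 in OST, −0.40, and TRAM2 −0.35. CAMLG footprints lay the other way, at 30.7 and 43.5 CPM in knockout cells and 30.2 and 23.6 CPM in wild-type cells. Their log2 fold change of 0.40 did not pass (adjusted p = 0.475 by edgeR). Footprint values of TUSC3 and TRAM2 were −0.20 and −0.61, neither past the test. The TUSC3 call was lost with DESeq2 (adjusted p = 0.192), and the TRAM2 call without knockout replicate 1 (0.0583), with DESeq2 (0.312) and with no filter on low counts (0.0836). In footprints 3 of 16 fell, HSPA5 with a log2 fold change of −0.88, the BiP-related chaperone HYOU1 with −0.91 and the BiP exchange factor SIL1 with −1.63. The HYOU1 call was lost without wild-type replicate 1 (adjusted p = 0.269) and with DESeq2 (0.155), and the SIL1 call without wild-type replicate 2 (0.171) and with DESeq2 (0.302). Of all 78 pathway genes tested in RNA outside the 46, 17 fell (21.8%, against 8.79% of all genes) and 2 rose (2.56%, against 5.17%). Of the 67 tested in footprints, 13 fell (19.4%, against 3.87% of all genes) and 0 rose.

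**Figure D3:**
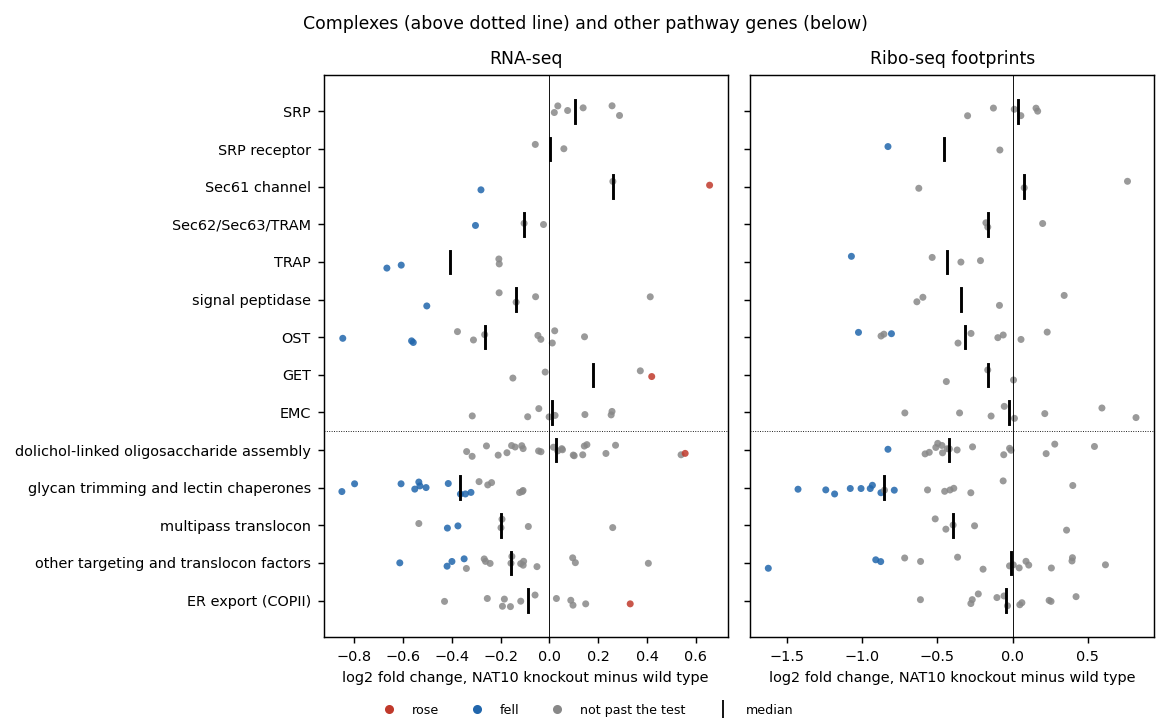
Log2 fold change (knockout minus wild type) in RNA-seq and Ribo-seq footprints for every tested gene of each complex and of the other pathway lists; each point is 1 gene, coloured by its test result, and the black bar is the median. The lowest RNA medians are those of TRAP (−0.41) and the glycan trimming list (−0.36), which also have footprint medians below 0. Medians of OST, signal peptidase and the SEC62, SEC63 and TRAM1 group are below 0 in both assays too. So are those of the multipass translocon, the other targeting genes and ER export.

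The acRIP-seq peak lists were read for the same genes, as the authors' own calls against input on transcripts. In knockout cells 45 of 46 genes had an ac4C antibody peak and 46 an IgG peak, where 70.7% and 68.2% of the genes tested in RNA had one. In wild-type cells all 46 had both, where 53.2% and 54.3% of the genes had one. Control IgG thus gave peaks on as many of these genes as the antibody did. GET1 was the gene without an antibody peak in knockout cells.

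The strongest fold over input was set against that of IgG for each gene, with 1 list per kind and hence no test. In knockout cells the ratio of antibody to IgG had a median of 0.967 over 45 genes (0.453 for SRP9 to 1.94 for GET4), and 21 were higher with the antibody, against a median of 1.003 and 50.5% higher over all genes with both. In wild-type cells the median was 0.963 over 46 genes (0.808 to 1.14), and 17 were higher with the antibody, against 0.963 and 35.8% over all genes. On the 2348-base RPN2 transcript ENST00000373622.9, peak regions covered 99.9% with the antibody and 99.6% with IgG in knockout cells, and 99.8% with the antibody and 99.9% with IgG in wild-type cells.

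Antibody regions that no IgG region touched by even 1 base were found on 18 of 46 genes in knockout cells, where 35.0% of all genes had one, and on 6 of 46 in wild-type cells, where 11.2% did. Where IgG regions were allowed to cover under 50% of the antibody region, the counts were 24 of 46 in knockout cells (38.7% of all genes) and 7 of 46 in wild-type cells (12.9%). The 6 in wild-type cells were SRP54, SRPRA, SSR1, MAGT1, BAG6 and EMC1, of which SRPRA, MAGT1, BAG6 and EMC1 also had one in knockout cells. The knockout lists held 80709 antibody and 77342 IgG regions, with median lengths of 306 and 296 bases. The wild-type lists held fewer and longer ones, 45290 and 45426, with median lengths of 632 and 623 bases. Counts of genes with a region are therefore not compared between genotypes. DDOST and RPN2 had no such region in either genotype.

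**Figure D4:**
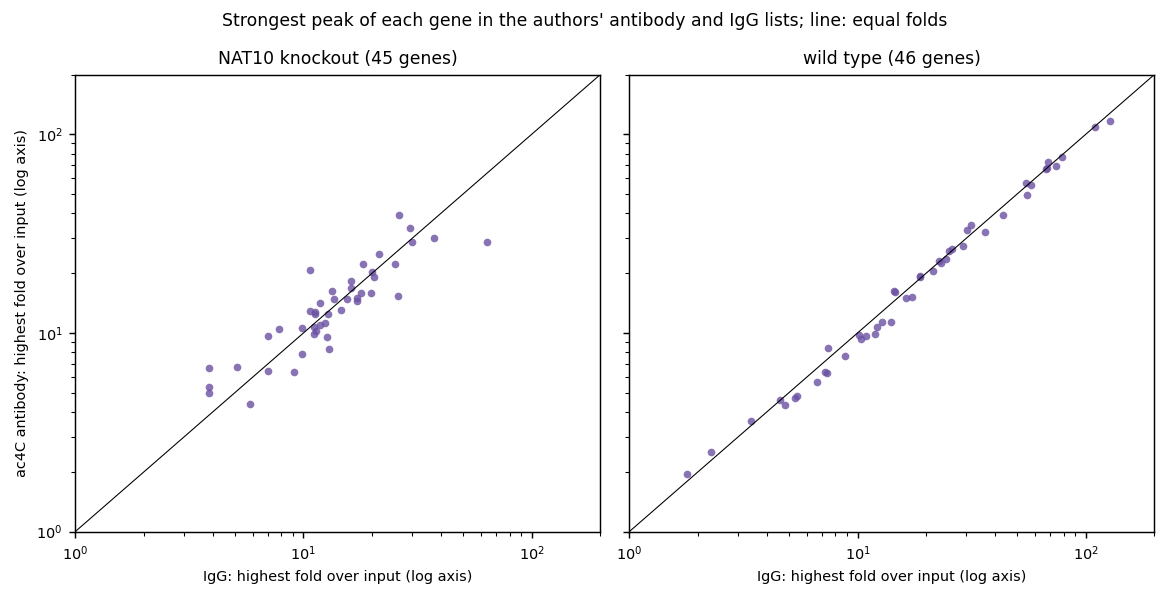
Strongest fold over input with the ac4C antibody against that with IgG for each gene, on log axes, with knockout lists left and wild-type lists right; each point is 1 gene and the line marks equal folds. Points lie along the line in both genotypes, with a median ratio of antibody to IgG of 0.967 in knockout and 0.963 in wild-type lists.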

How the data were processed

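RNA-seq and Ribo-seq values were whole-number counts per gene, deposited by the authors after duplicate removal, per the file headers. Tools listed in the submitters' processing notes are STAR, featureCounts, SAMtools, cutadapt, Trimmomatic, Bowtie2, MACS2, bedtools, ChIPseeker and DESeq2, with build GRCh38.p13; versions and the strand setting of the counting are not given in the sources used here. The deposited peak lists give a score, a fold enrichment over input and a −log10 q for each peak, as the authors' peak caller wrote them, with replicates merged, per the file headers.

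The 46 genes, the pathway lists and the tests were chosen with earlier results of these data known. The 44 and 18 duplicate Y-chromosome identifiers of RNA and footprint tables were left out. Counts were fitted over all genes with edgeR 4.0.16 under R 4.3.3 (filterByExpr, TMM scaling, quasi-likelihood F test, Benjamini-Hochberg adjustment, threshold 0.05), and SE is the log2 fold change divided by the root of F. The knockout RNA libraries differed by 2.99% over counting noise (genes with at least 20 summed counts) and were counted as 1 sample. Residual degrees of freedom were 1 in RNA, 2 in footprints and 3 in translational efficiency, where TMM was run within each assay. The fits were tested on simulated data. Alternatives were DESeq2 1.42.0, other scalings, no filter, a replicate block and leaving out each library. Named genes were NAT10, every gene that passed, the highest and lowest gene of each complex, and up to 4 passing genes per pathway list and assay with the lowest adjusted p; others were named after their values were seen. Peaks were matched by gene identifier. Counting intervals were not drawn, and PCR reads without molecular identifiers are not independent molecules.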

Additional observations from a re-analysis of the deposited data

How the results depend on the processing

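RNA calls numbered 2271 genes and 10 members. They numbered 1039 genes with DESeq2 and 3513 with no filter on low counts, where the median of all genes moved to 0.056 and that of the members to 0.033, still below it, and 54.8% of calls had risen, against 37% with the filter. With the 4 RNA libraries kept apart there were 5476 genes and 25 members, and with a replicate block added 4983 and 22. Without 1 knockout replicate there were 2077 to 2116 genes, 8 to 11 members and a member median of −0.04 to −0.02; without 1 wild-type replicate no residual degrees of freedom were left, so only values were computed. Footprint calls numbered 475 genes and 4 members. They numbered 181 and 2 with DESeq2, 889 and 9 with no filter, and 1594 and 13 with the replicate block. Without 1 replicate they ranged over 264 to 716 genes, 2 to 8 members and a member median of −0.18 to −0.016, the lowest count of genes without wild-type replicate 1. Translational efficiency gave 0 calls in edgeR, 1 with DESeq2, 73 with no filter (member median −0.15), 1 with scaling over both assays together (added once the data had been seen), 5 with the 4 RNA libraries apart, and 261 with the replicate block, of which 6 were members (SRP14, SRPRB, SPCS1, SEC11A, RPN1 and RPN2). Without 1 replicate it gave 0 to 12 calls and a member median of −0.23 to −0.072. The cause of these shifts was not tested, beyond the numbers of genes and samples that enter each fit. Same-numbered libraries deviated together with a correlation of −0.0188 in RNA and 0.217 in footprints over genes, and 2 pairs are too few to tell whether the numbers pair the libraries. Antibody peaks were on 18 members in knockout lists and 6 in wild-type lists where no IgG peak touched them, and on 24 and 7 where IgG covered under 50% of the peak. No log2 fold change of a called member turned sign in any of these fits. RNA calls of SEC61G, SSR1, SSR2, SEC11A, RPN2, DDOST and STT3B and the footprint call of RPN2 held in every fit with a test. The RNA fits with a test all kept both wild-type libraries, so they do not show whether these RNA calls depend on 1 of them.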
